A study of Homo sapiens with 16 samples.

Results

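The BCL2 family decides whether a stressed cell keeps its mitochondrial outer membrane intact. Described here are 10 of its genes: 4 anti-apoptotic (survival) genes (BCL2, BCL2L1, MCL1 and BCL2A1), 4 BH3-only genes (BCL2L11, BID, BBC3 and PMAIP1) and 2 effector genes (BAX and BAK1). They were chosen by name, and a probe set was counted as a member's when that gene was the only symbol its annotation gave. This found 10 gene-level probe sets, 1 for each gene, among 33297 that hold 18417 named genes, and 84 exon-level probe sets among 257430. All 10 genes passed the filter on dim signals and were tested.

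Every sample was labelled as RNA of L1236, 1 established line of human Hodgkin lymphoma cells. The cells were grown in RPMI with 20% FBS, and the RNA was hybridised to Affymetrix whole-transcript arrays. The identity of the cells was not tested here. All cells, the comparison group included, had been infected with the same retrovirus, which encodes a doxycycline-inducible short hairpin RNA against RELB, a subunit of the alternative NF-kB pathway. One group, labelled induced (infected induced shREL-B), received doxycycline, and the other, labelled uninduced (infected uninduced shREL-B), did not, so an effect of the drug and an effect of the hairpin cannot be told apart. The 16 samples are 8 arrays, 4 per label, each summarised per gene and per exon-level probe set.

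Each induced array has an uninduced partner with the same B code (B_1 or B_4) and the same last number (1 or 4). The labels do not say what these codes mean. They also do not say whether the arrays of a label come from different cultures, and the p-values therefore reflect differences between arrays that may be technical. Pair 1 is B_1 with last number 1, pair 2 is B_1 with 4, pair 3 is B_4 with 1 and pair 4 is B_4 with 4, and values of single arrays are given in this order. Partners share these codes only, and their deviations did not show them to be paired samples, so values by pair are descriptions. Levels are log2 signals of the deposited tables, differences are induced minus uninduced on the same scale with the SE of the limma fit, and a gene passed at a Benjamini-Hochberg adjusted p below 0.05 over all 13813 tested genes.

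In living cells, survival members hold the effectors BAX and BAK1 in check by binding the BH3 helix of these and of the BH3-only proteins. BH3-only proteins carry stress signals: each binds some or all survival members, and BIM (the product of BCL2L11), BID and PUMA (BBC3) can also activate the effectors directly. Free BAX and BAK assemble into pores, which release cytochrome c and start the caspase cascade. Germinal centre B cells, from which Hodgkin cells derive, are prone to die unless they receive survival signals, and NF-kB is a known activator of BCL2L1 and BCL2A1 in lymphocytes.

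The 250 bases before an annotated start site are shown for 5 members, 1 window each. BCL2L1, BCL2L11 and PMAIP1 had the largest falls of the 10 genes, BID had the largest rise, and BAX holds the most matches of the motifs searched. RefSeq's table has 2 windows for BCL2L1 and 5 for BID. The BID window shown is 1 of the 2 with a match, picked for it, and the BCL2L1 window is the one with the lower coordinates. The sequences are RefSeq's on GRCh38.p14, written 5′ to 3′ on the gene's strand and ending at the base before the start site, with each match to the E-box CACGTG in capitals.
BCL2L1 (chr20:31722869-31723118, minus strand): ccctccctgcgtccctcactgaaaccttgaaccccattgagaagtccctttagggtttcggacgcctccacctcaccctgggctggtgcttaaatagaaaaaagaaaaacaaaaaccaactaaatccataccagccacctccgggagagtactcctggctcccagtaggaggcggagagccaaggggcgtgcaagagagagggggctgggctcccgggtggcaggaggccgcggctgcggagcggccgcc
BCL2L11 (chr2:111120664-111120913, plus strand): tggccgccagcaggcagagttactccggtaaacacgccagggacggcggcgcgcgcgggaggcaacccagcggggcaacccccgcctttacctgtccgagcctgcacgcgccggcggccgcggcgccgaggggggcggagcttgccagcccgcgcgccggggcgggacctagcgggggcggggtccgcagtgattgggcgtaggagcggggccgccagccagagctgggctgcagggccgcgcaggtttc
PMAIP1 (chr18:59899746-59899995, plus strand): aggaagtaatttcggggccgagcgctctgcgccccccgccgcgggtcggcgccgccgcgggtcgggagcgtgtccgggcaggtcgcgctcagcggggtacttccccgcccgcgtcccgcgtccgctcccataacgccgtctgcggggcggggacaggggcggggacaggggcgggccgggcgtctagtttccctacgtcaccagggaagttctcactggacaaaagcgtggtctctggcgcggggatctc
BID (chr22:17774043-17774292, minus strand): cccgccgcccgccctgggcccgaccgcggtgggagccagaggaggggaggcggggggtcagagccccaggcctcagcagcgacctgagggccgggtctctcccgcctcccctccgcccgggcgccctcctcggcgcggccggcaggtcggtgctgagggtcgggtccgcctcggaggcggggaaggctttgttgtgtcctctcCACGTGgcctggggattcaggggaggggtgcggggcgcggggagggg
BAX (chr19:48954625-48954874, plus strand): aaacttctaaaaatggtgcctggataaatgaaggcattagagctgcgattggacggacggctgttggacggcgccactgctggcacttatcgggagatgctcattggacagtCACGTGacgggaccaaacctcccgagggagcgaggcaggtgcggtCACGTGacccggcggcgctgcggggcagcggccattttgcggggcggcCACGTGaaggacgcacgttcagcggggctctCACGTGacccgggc

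The table of promoters held 14 windows for 9 of the 10 genes. Searched on both strands, CACGTG, a palindrome bound by many basic helix-loop-helix factors, stood in 4 of these 14 windows, against 6.34% of all 35116 windows of the same length. BAX held 4 matches, whose first bases lay 138, 93, 45 and 14 bases before the start. BID held 1 match in the stretch that 2 of its windows share and 0 in its other 3 windows, and BBC3 held 1, at 232 bases. The NF-kB (kappaB) consensus stood in 0 of 14 windows, against 9.96% of all, and the p53 half-site consensus in 1 of 14, that of BAK1, against 5.57%. In the windows shown only the E-box had matches, so no overlap of different motifs could arise there. A match is only a run of letters, and no binding was measured. The windows of members had a median GC content of 65.8%, with a range from 38.8% to 78%, against a median of 58% over all windows.

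RELB, the gene the hairpin targets, did not pass the test, so the labels are not borne out by the RNA of their target. Its protein was not measured here. It measured 7.22, 7.26, 7.39 and 7.14 in arrays labelled induced, against 7.23, 7.38, 7.54 and 7.45 in arrays labelled uninduced. The difference was -0.15 ± 0.09 (SE, n = 4 per group), a level 9.69% lower, with a limma adjusted p of 0.212 and an exact two-sided permutation p of 0.171. The RELB difference was -0.07 without induced replicate 4 and -0.22 without uninduced replicate 1. Directions below therefore rest on the labels alone. Column medians ran from 5.79 to 5.88, and array correlations from 0.987 to 0.991 within the induced label and from 0.984 to 0.995 within the uninduced label.

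Of the 10 members, 2 rose in arrays labelled induced (MCL1 and BID) and 6 fell (BCL2L1, PMAIP1, BCL2L11, BCL2, BAX and BAK1), while BCL2A1 and BBC3 did not pass. The split cut through each class but the effectors: among survival genes 1 rose, 2 fell and 1 did not pass, among BH3-only genes also 1, 2 and 1, and both effectors fell. Over all tested genes, 27.1% were called higher and 28.3% lower, so calls were common everywhere. The median member difference was -0.37, against 0.02 over all tested genes, and the median absolute difference was 0.98, against 0.30. For 7 members the ranges of the labels did not overlap, against 49.8% of tested genes.

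**Figure D1:**
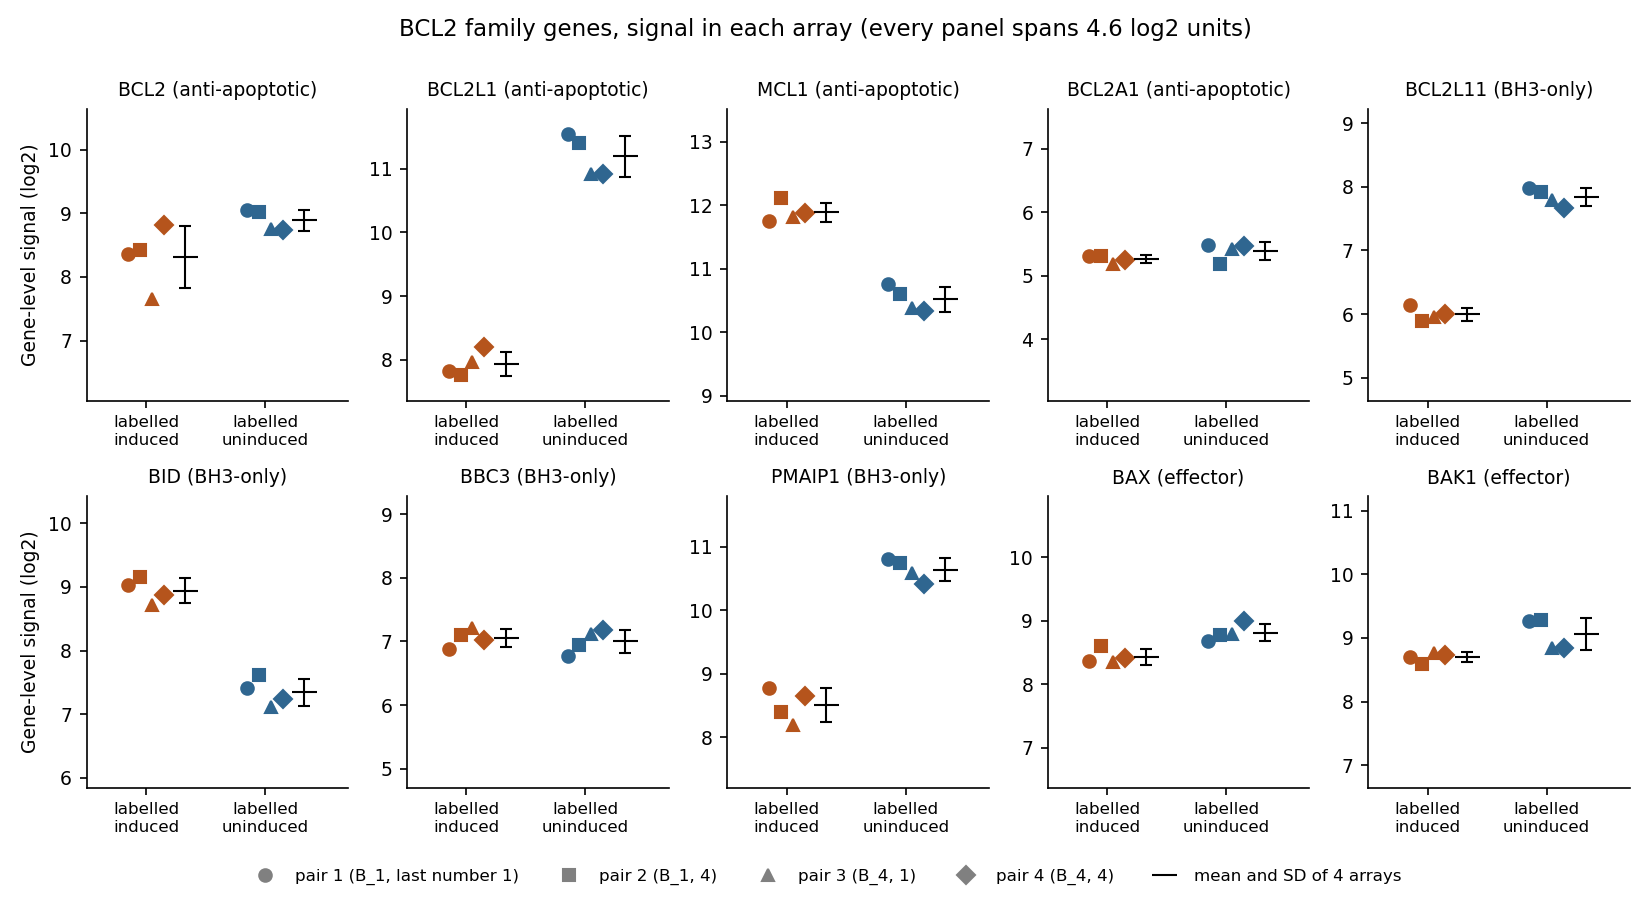
Gene-level log2 signal (vertical axis) of the 10 members in each array, labelled induced on the left and labelled uninduced on the right of each panel; marker shapes give the pair, and bars give the mean and SD of 4 arrays. The groups do not overlap for BCL2L1, MCL1, BCL2L11, BID, PMAIP1, BAX and BAK1, with only a narrow gap for BAX and BAK1. They overlap for BCL2, BCL2A1 and BBC3.

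BCL2L1, which encodes the survival protein BCL-xL, differed most. Its signal was 7.82, 7.76, 7.97 and 8.19 in arrays labelled induced, against 11.5, 11.4, 10.9 and 10.9 in arrays labelled uninduced. Every induced array lay more than 2 log2 units under every uninduced array, and the spread within a label was far smaller than that gap. The mean was 7.93 ± 0.19 in arrays labelled induced and 11.20 ± 0.33 in arrays labelled uninduced (SD, n = 4 each). BCL2L1 was thus 9.60-fold lower, a difference of -3.26 ± 0.16 (95% interval -3.61 to -2.91), with a limma adjusted p of 2.48e-08. Only 2.28% of tested genes had a larger absolute difference.

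MCL1, a short-lived survival protein that binds BIM and NOXA, moved the other way. Its signal was 11.75, 12.11, 11.81 and 11.87 in arrays labelled induced, against 10.76, 10.60, 10.37 and 10.33 in arrays labelled uninduced. All 4 induced arrays were above all 4 uninduced ones. The rise was 2.58-fold (1.37 ± 0.10, 95% interval 1.14 to 1.60), with a limma adjusted p of 8.3e-07. It was smallest in pair 1 (0.995) and between 1.44 and 1.54 in the other pairs.

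BCL2, the founding survival member, fell less and less evenly. Its signal was 8.35, 8.42, 7.65 and 8.82 in arrays labelled induced, against 9.05, 9.01, 8.76 and 8.74 in arrays labelled uninduced. Induced array 3 was the lowest of all 8, and induced array 4 lay within the uninduced range, so the groups overlap. BCL2 was 1.496-fold lower (-0.58 ± 0.18, 95% interval -0.97 to -0.19), with a limma adjusted p of 0.0162. It was lower in 3 of 4 pairs, and the exact two-sided permutation test gave p = 0.0857. With 4 arrays per label this test cannot give a p below 0.0286. The call was lost without induced replicate 2 (adjusted p = 0.0608) and without uninduced replicate 1 (adjusted p = 0.0712), and without induced replicate 3 the difference was -0.38.

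BCL2A1, which encodes the survival protein BFL-1, was dim in both groups and did not pass. Its signal was 5.32, 5.31, 5.18 and 5.25 in arrays labelled induced, against 5.48, 5.19, 5.41 and 5.47 in arrays labelled uninduced. The groups overlapped, and the difference of -0.13 ± 0.09 had a 95% interval from -0.33 to 0.08 and a limma adjusted p of 0.29. That interval leaves out a change of the gene-level signal as large as that of BCL2. Because dim signals are compressed, it cannot exclude such a change in the RNA. The only 2 exon-level probe sets of BCL2A1 bright enough to test differed by -0.97 and -0.80.

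Among the BH3-only genes, PMAIP1, which encodes NOXA, a binder of MCL-1 and BFL-1, fell furthest. Its signal was 8.78, 8.39, 8.20 and 8.66 in arrays labelled induced, against 10.81, 10.74, 10.59 and 10.41 in arrays labelled uninduced. No induced array came near the uninduced range. PMAIP1 was 4.38-fold lower (-2.13 ± 0.12, 95% interval -2.41 to -1.86), with a limma adjusted p of 1.14e-07.

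BCL2L11, which encodes BIM, a binder of all survival members, fell almost equally in every pair. Its signal was 6.14, 5.88, 5.96 and 6.003 in arrays labelled induced, against 7.98, 7.92, 7.79 and 7.67 in arrays labelled uninduced. The 4 pair differences lay between -2.04 and -1.66. BCL2L11 was 3.59-fold lower (-1.84 ± 0.09, 95% interval -2.04 to -1.65), with a limma adjusted p of 2.22e-08.

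BID, whose protein is cut by caspase-8 and so links death receptors to mitochondria, was the BH3-only gene that rose. Its signal was 9.04, 9.16, 8.71 and 8.87 in arrays labelled induced, against 7.41, 7.61, 7.12 and 7.24 in arrays labelled uninduced. The 4 pair differences were nearly the same, from 1.55 to 1.63. BID was 3.03-fold higher (1.60 ± 0.08, 95% interval 1.43 to 1.77), with a limma adjusted p of 2.17e-08.

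BBC3, which encodes PUMA, a p53 target, did not pass. Its signal was 6.89, 7.10, 7.22 and 7.02 in arrays labelled induced, against 6.78, 6.94, 7.12 and 7.17 in arrays labelled uninduced. The ranges overlapped almost wholly, and the difference was 0.05 ± 0.09 (95% interval -0.15 to 0.26), with a limma adjusted p of 0.667.

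Both effectors fell, by much less than the leading BH3-only genes. BAX, which moves from the cytosol to mitochondria when activated, had 8.36, 8.60, 8.34 and 8.41 in arrays labelled induced, against 8.68, 8.78, 8.80 and 9.0001 in arrays labelled uninduced. The groups did not overlap, with 8.60 as the highest induced and 8.68 as the lowest uninduced value. BAX was 1.30-fold lower (-0.38 ± 0.09, 95% interval -0.58 to -0.18), with a limma adjusted p of 0.00376. BAK1, whose protein sits in the mitochondrial membrane, had 8.69, 8.60, 8.77 and 8.73 in arrays labelled induced, against 9.27, 9.29, 8.84 and 8.84 in arrays labelled uninduced. The uninduced B_1 arrays stood apart above the uninduced B_4 arrays, which lay just above the induced ones. BAK1 was 1.28-fold lower (-0.36 ± 0.11, 95% interval -0.62 to -0.11), with a limma adjusted p of 0.0203. The BAK1 call was lost without induced replicate 1 or 2, or without uninduced replicate 1 or 2, with adjusted p from 0.0728 to 0.0881.

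Weighed as classes, all 3 were lower on average in arrays labelled induced. With each gene centred on its own mean over 8 arrays, the survival genes averaged -0.36, -0.28, -0.52 and -0.14 in arrays labelled induced, against 0.54, 0.38, 0.19 and 0.19 in arrays labelled uninduced. The BH3-only genes averaged -0.21, -0.28, -0.40 and -0.28 in arrays labelled induced, against 0.33, 0.39, 0.24 and 0.21 in arrays labelled uninduced. The effectors averaged -0.22, -0.15, -0.19 and -0.18 in arrays labelled induced, against 0.22, 0.28, 0.07 and 0.17 in arrays labelled uninduced. The mean differences were -0.65 for survival genes, -0.58 for BH3-only genes and -0.37 for effectors. These means hide opposite members: the survival mean pools a fall of 3.26 in BCL2L1 with a rise of 1.37 in MCL1, and the BH3-only mean pools falls of 2.13 and 1.84 with a rise of 1.60 in BID.

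Single survival genes therefore shifted against single pro-death genes in opposite ways. Signals of different probe sets cannot be compared as levels, so only the change of each log2 ratio between labels is given, without a test. Of the 24 ratios of a survival gene over a BH3-only or effector gene, 8 were lower in every induced array than in any uninduced array, 9 were higher in this way, and 7 overlapped. These ratios are made from the values of 10 genes, so they restate the differences above and are no separate support. No share over ratios of other genes was computed. Among single tested genes, 49.8% did not overlap between labels. The ratio of BCL2L1 was lower over each of the 6 pro-death genes, without overlap. It changed by -4.86 over BID (29.1-fold lower), by -3.32 over BBC3, by -2.90 over BAK1, by -2.88 over BAX, by -1.42 over BCL2L11 and by -1.13 over PMAIP1.

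The ratio of MCL1 was higher over 5 of the 6, without overlap between labels. Over PMAIP1, whose product binds MCL-1, it was 11.3-fold higher (3.50), and over BCL2L11 it was 9.28-fold higher (3.21). The changes over BAX (1.75), BAK1 (1.73) and BBC3 (1.32) were smaller. Over BID the MCL1 ratio changed by -0.23, and the labels overlapped. BCL2 was lower relative to BID (-2.18) and higher relative to BCL2L11 (1.26) and PMAIP1 (1.55), each without overlap. Its ratios over BAX (a change of -0.20), BAK1 (-0.22) and BBC3 (-0.63) overlapped.

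**Figure D2:**
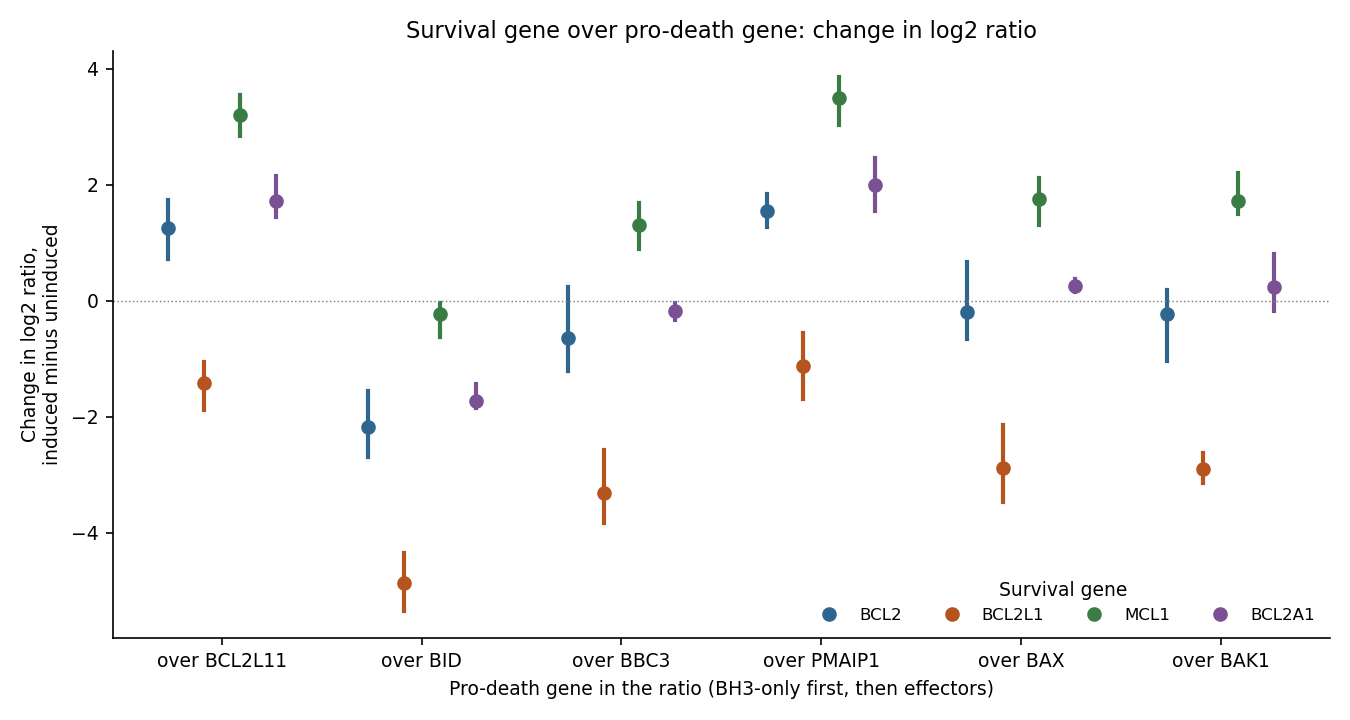
Change in the log2 ratio of a survival gene over a pro-death gene, labelled induced minus labelled uninduced (vertical axis), for the 6 pro-death genes (horizontal axis); colours give the survival gene, points are differences of the label means and lines run from the lowest to the highest difference of 2 arrays that share B code and last number. BCL2L1 lies under 0 over all 6 genes, and MCL1 lies above 0 over all but BID.

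Differences of members between B codes, B_4 minus B_1, ran from -0.32 (BID) to 0.20 (BBC3), and none passed. With induction label and last number in the model, 0 of 10 members and 0% of tested genes passed between B_4 and B_1 (limma). However, 1911 of 13813 genes had an unadjusted limma p under 0.05. BID was the 1 member among those, with B_4 minus B_1 at -0.32 ± 0.08 and a limma adjusted p of 0.229. It averaged 8.79 in B_4 and 9.10 in B_1 arrays labelled induced, and 7.18 in B_4 and 7.51 in B_1 arrays labelled uninduced. Between last numbers 4 and 1, likewise 0 members and 0% of genes passed, with 970 genes and 0 members at an unadjusted p under 0.05. The median absolute difference over all tested genes was 0.10 for the B code and 0.09 for the last number, against 0.30 for the induction label.

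BCL2L1 was the member whose difference between labels varied most with the B code. It was -2.84 in B_4 arrays and -3.69 in B_1 arrays, so the interaction was 0.85 ± 0.17, with a 95% interval from 0.46 to 1.23. In arrays labelled induced, B_4 was above B_1 by 0.29, and in arrays labelled uninduced B_4 was under B_1 by a difference of -0.55. The interaction did not pass (limma adjusted p = 0.0902), but it passed with a variance trend and robust fitting (adjusted p = 0.0183). Over all tested genes, 0.297% passed this interaction, and 1639 had an unadjusted p under 0.05.

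BAK1 was the other member with an unadjusted p under 0.05. Its difference between labels was -0.09 in B_4 arrays and -0.64 in B_1 arrays, an interaction of 0.55 ± 0.15 with a limma adjusted p of 0.188. At exon level, 6 of 6 BCL2L1 probe sets had a positive interaction, from 0.03 to 1.12. None of them passed, and 0% of all exon-level probe sets passed. They summarise the same arrays as the gene-level signal, so their shared sign is no separate support. The interaction was positive in 0 of 5 probe sets of BBC3, 1 of 11 of BAX and 4 of 9 of BCL2. No share of genes with all signs alike was computed. For the last number, 0% of genes and 0 members passed the interaction, and 408 genes had an unadjusted p under 0.05. BCL2 had the largest member value there, 0.65 ± 0.31: its difference between labels was -0.26 at last number 4 and -0.90 at last number 1.

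**Figure D3:**
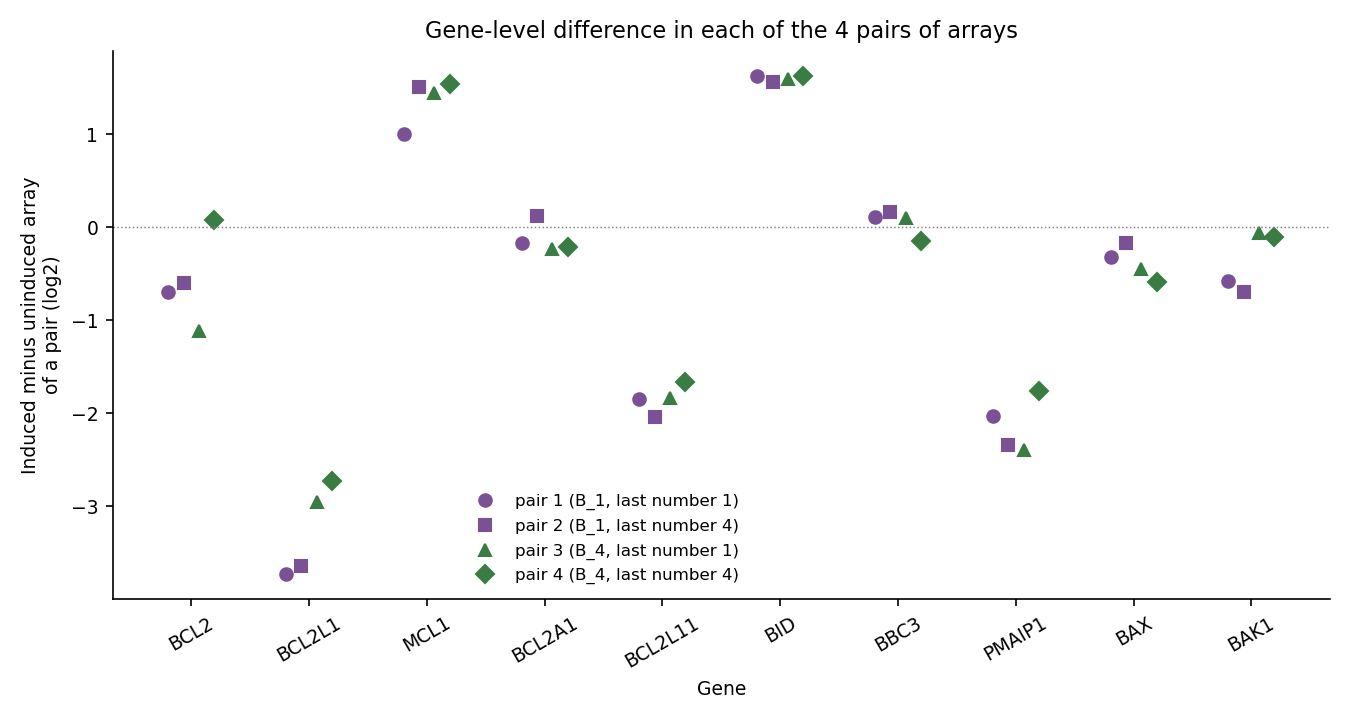
Log2 difference of the induced minus the uninduced array of each pair (vertical axis) for the 10 members (horizontal axis); marker shapes and colours give the pair and its B code. BID and BCL2L11 differ little between pairs, the B_4 pairs of BCL2L1 and BAK1 lie nearer to 0 than the B_1 pairs, and BCL2 changes sign in pair 4.

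The exon-level probe sets, each a short stretch of the transcript, show whether a gene moved along its whole length. Of the 84, 76 were bright enough to test: 17 were higher, 32 lower and 27 did not pass. Over all 168240 tested exon-level probe sets, 17.9% were called higher and 17.5% lower. All 6 of BCL2L1 fell, from -3.54 to -1.84, as did all 12 tested ones of BCL2L11, from -2.73 to -1.07. None of the 5 of BBC3 passed, with differences from -0.06 to 0.28.

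For MCL1, 7 of 8 tested probe sets rose, by up to 1.93. The exception, 7919759, had 11.37, 11.25, 10.89 and 10.66 in arrays labelled induced, against 11.03, 11.32, 11.39 and 11.46 in arrays labelled uninduced. The groups overlapped there, with a difference of -0.26 and a limma adjusted p of 0.397. MCL1 is known to be spliced into a long survival form and a short form that lacks the middle exon and promotes death. Which exon each probe set covers was not analysed here.

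For BID, 10 of 12 rose, by up to 2.51. The most different, 8074262, had 8.04, 8.08, 7.14 and 7.43 in arrays labelled induced, against 5.01, 6.15, 5.11 and 4.40 in arrays labelled uninduced. The other 2, the last in the run of probe set numbers, did not pass: 8074272 differed by -0.16 and 8074273 by -0.30. The probe set 8074273 had 7.35, 7.87, 7.50 and 7.13 in arrays labelled induced, against 7.40, 7.58, 8.10 and 7.98 in arrays labelled uninduced, with overlap.

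For PMAIP1, 5 of 7 fell, with differences down to -2.54, and the first 2 in the run did not pass, at -0.30 and -0.43. The probe set 8021476 had 8.22, 7.38, 7.23 and 7.30 in arrays labelled induced, against 10.30, 10.17, 10.04 and 9.78 in arrays labelled uninduced. By contrast 8021471 had 7.94, 7.06, 7.28 and 7.06 in arrays labelled induced, against 7.74, 7.84, 7.48 and 7.46 in arrays labelled uninduced. In BCL2L1 the last of the run, 8065575, fell least, by 1.84, and differed from the mean of the gene's probe sets by 1.21. It was also the dimmest of them, with means of 5.61 in arrays labelled induced and 7.44 in arrays labelled uninduced. Dim signals are compressed, and the part of this in the smaller fall was not tested.

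**Figure D4:**
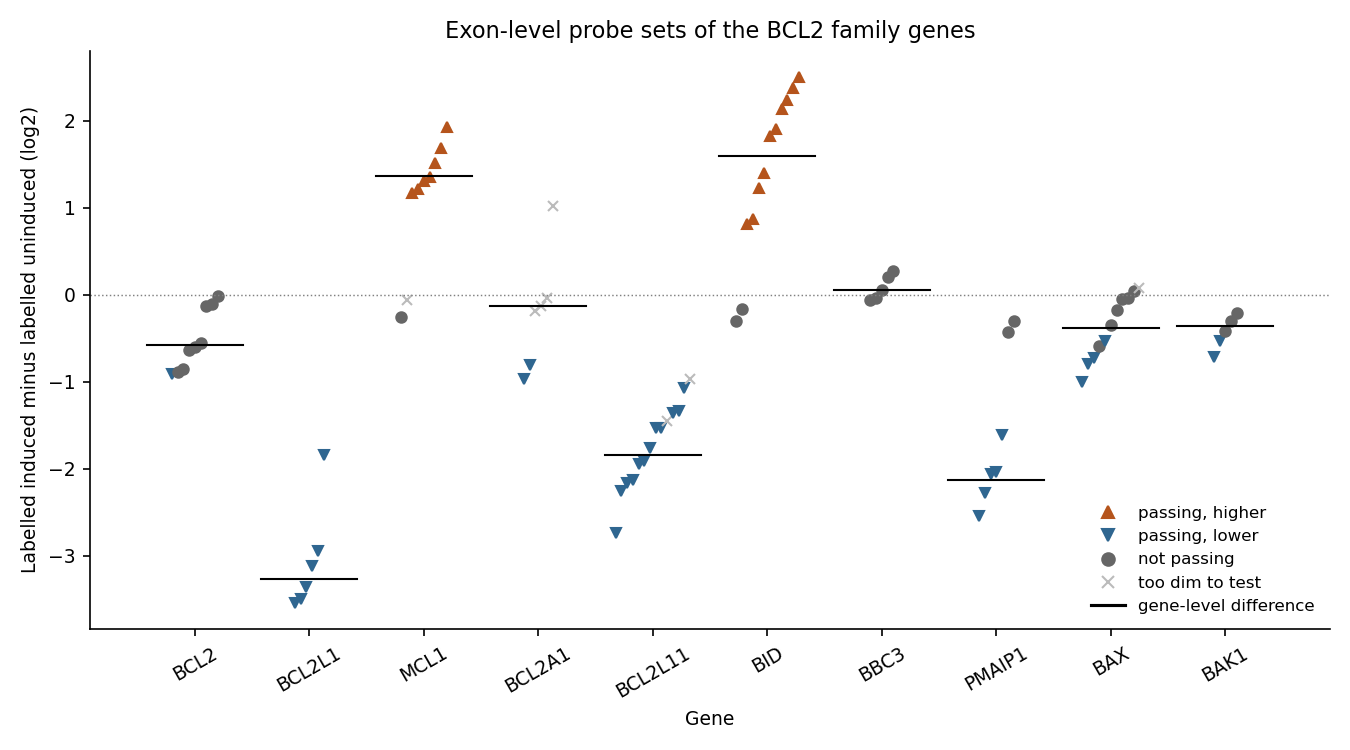
Log2 difference between labels (vertical axis) of each exon-level probe set of the 10 members (horizontal axis), ordered by size within a gene; symbols give the limma call, crosses are probe sets too dim to test and bars give the gene-level difference. MCL1, BID and PMAIP1 each hold 1 or 2 tested probe sets near 0 beside others far from it, and all tested ones of BCL2L1 and BCL2L11 are lower.

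The smaller changes were patchier. BAX had 4 of 10 tested probe sets lower, from -0.998 to 0.05 over all 10, and BAK1 had 2 of 5. BCL2 had 1 of 9, although all 9 values were negative, from -0.90 to -0.01. BCL2A1 had only 2 testable probe sets of 6, and both fell, by 0.97 and 0.80, in contrast to its gene-level signal. Its probe set 7990819 had 5.76, 6.56, 5.41 and 6.38 in arrays labelled induced, against 6.80, 7.06, 6.80 and 7.33 in arrays labelled uninduced, without overlap.

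Whether the probe sets of a gene differed unequally was tested with the F test of limma's diffSplice, which 6 members passed: BCL2L1, MCL1, BCL2L11, BID, BAX and PMAIP1. This test, which takes 1 spread for all probe sets of a gene, called 40.6% of 14639 tested genes. It made too many false calls on simulated data, so its count of 6 may be too high. An alternative with its own spread for each probe set, added after seeing the data, called 23.6% of genes and 4 members: BID (adjusted p = 0.00114), PMAIP1 (adjusted p = 0.00802), MCL1 (adjusted p = 0.0268) and BCL2L11 (adjusted p = 0.0282). BCL2L1 (adjusted p = 0.0698) and BAX (adjusted p = 0.0851) did not pass it. BCL2, BAK1 and BBC3 passed neither, and BCL2A1 had too few testable probe sets.

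Other genes of the pathway were read from lists chosen by name. Calls in these lists, and in the marker lists further below, stand against 27.1% higher and 28.3% lower over all tested genes. Of 13 further BCL2 family genes, 12 had a probe set and 10 were tested: 3 rose, 2 fell and 5 did not pass, with a median difference of 0.09. BNIP3, a mitophagy receptor with a BH3-like stretch, was 12.6-fold lower (-3.66 ± 0.21), while its relative BNIP3L was 1.83-fold higher (0.87 ± 0.24). BMF, a BH3-only gene whose product binds dynein light chain, rose 2.13-fold (1.09 ± 0.19), and BCL2L12 was 1.78-fold lower (-0.83 ± 0.11). Limma's adjusted p was 0.0106 or lower for these 4.

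Downstream of the pores, of 17 tested apoptosome and mitochondrial factors 9 rose, 2 fell and 6 did not pass, with a median of 0.30. CASP9, the caspase that the apoptosome activates, was 4.10-fold higher (2.04 ± 0.09). OPA1, which shapes mitochondrial cristae, rose 2.06-fold (1.04 ± 0.09), DIABLO, which blocks inhibitor of apoptosis proteins, 2.03-fold (1.02 ± 0.09), and BIRC6, such an inhibitor, 1.46-fold (0.54 ± 0.08). Their limma adjusted p values were 0.00021 or lower.

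Of 24 tested regulators of BCL2 family proteins and RNA, 12 rose, 7 fell and 5 did not pass, with a median of 0.21. The 4 named here, which had the lowest limma p, all rose, so none of the 7 that fell is among them. MARCHF5, a mitochondrial ubiquitin ligase that acts on MCL-1 and NOXA, was 3.68-fold higher (1.88 ± 0.09). The kinases PIM2 (2.67-fold, 1.42 ± 0.09) and PIM1 (2.002-fold, 1.001 ± 0.09), which phosphorylate BAD, and the 14-3-3 protein YWHAE (1.94-fold, 0.96 ± 0.08) also rose. Limma's adjusted p was 3.21e-06 or lower for each.

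Of 26 tested transcription factors chosen for known sites in member genes, 9 rose, 9 fell and 8 did not pass, with a median of 0.04. STAT5A, a cytokine-driven factor known to activate BCL2L1, was 14.8-fold lower (-3.89 ± 0.21), and STAT6, which acts under interleukin-4, was 2.33-fold lower (-1.22 ± 0.08). RUNX1 rose 3.67-fold (1.87 ± 0.11) and RUNX3 2.20-fold (1.14 ± 0.09). The limma adjusted p was 1.34e-06 or lower for these 4. No test ties any of these factors to a member.

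Of 8 tested NF-kB survival targets outside the family, 3 rose and 5 fell, with a median of -0.53. CFLAR, the caspase-8 inhibitor c-FLIP, was 5.83-fold lower (-2.54 ± 0.11), and GADD45B was 1.81-fold lower (-0.86 ± 0.10). TRAF1 was 6.51-fold higher (2.70 ± 0.15) and TNFAIP3, the NF-kB brake A20, 5.07-fold higher (2.34 ± 0.16). The largest limma adjusted p of these 4 was 1.81e-05.

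Markers of the cells moved with the labels as well. Of 10 Hodgkin and Reed-Sternberg markers 3 rose, 5 fell and 2 did not pass, and their summed level ran from 76.5 to 79.2 in arrays labelled induced, against 81.1 to 81.8 in arrays labelled uninduced. TNFRSF8 (CD30) averaged 11.59 in arrays labelled induced and 6.89 in arrays labelled uninduced, and CD274 averaged 4.11 in arrays labelled induced and 9.91 in arrays labelled uninduced. Among the 5 tested markers of B cells, 3 were higher and 1 was lower in arrays labelled induced. Over the 6 measured, their summed level ran from 48.5 to 50.3 in arrays labelled induced, against 37.1 to 38.6 in arrays labelled uninduced. CD79A averaged 11.04 in arrays labelled induced and 5.73 in arrays labelled uninduced. CD22 averaged 10.19 in arrays labelled induced and 6.09 in arrays labelled uninduced, and PAX5 averaged 11.81 in arrays labelled induced and 9.05 in arrays labelled uninduced. BLK was lower (5.41 in arrays labelled induced, 6.20 in arrays labelled uninduced), and MS4A1 (CD20) was too dim to test, at 4.52 in arrays labelled induced and 4.49 in arrays labelled uninduced.

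Few markers of other cells passed. Of 7 T cell markers 4 were too dim to test (CD3D, CD3E, CD3G and CD2) and none of the other 3 passed. Their summed level ran from 33.2 to 34.7 in arrays labelled induced, against 32.5 to 33.9 in arrays labelled uninduced. Among 5 tested myeloid markers CD68 rose (6.04 in arrays labelled induced, 5.28 in arrays labelled uninduced) and 1 fell, with sums from 32.9 to 34.4 in arrays labelled induced, against 32.0 to 33.4 in arrays labelled uninduced. Among 5 tested fibroblast markers PDGFRB rose (5.44 in arrays labelled induced, 4.85 in arrays labelled uninduced), and COL1A1 lay above the column medians at 6.69 in arrays labelled induced and 6.73 in arrays labelled uninduced, with sums from 34.9 to 35.6 in arrays labelled induced, against 34.5 to 35.2 in arrays labelled uninduced. The part of the Hodgkin and B cell marker differences in the member differences was not tested. Whether the arrays of both labels came from the same cells was also not tested. In such bulk samples, fewer cells of a type cannot be told apart from less RNA per cell.

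For each member, the tested gene with the most similar pattern over the 8 gene-level arrays was found by Pearson's r, which for most members mainly reflects the gap between the labels. The closest were TMEM106B for BCL2L1 (r = 0.9995), ANK2 for BCL2L11 (0.9994), HERC3 for PMAIP1 (0.9984), CMTM7 for BID and VSIG10L for BAX (0.9963 each). PHF2 was closest to MCL1 (0.9954), PLEKHM2 to BAK1 (0.995), TRAPPC5 to BCL2 (0.9727), SLC4A2 to BBC3 (0.957) and TMPRSS5 to BCL2A1 (0.9056). An r above 0.99 was reached by 440 genes with BCL2L11, 341 with BCL2L1 and 155 with PMAIP1, against 41 with BID and 24 with MCL1. For BCL2, BCL2A1 and BBC3 no gene reached it.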

How the data were processed

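The values are log2 signals as the authors deposited them. The submitters' processing notes name RMA and Partek without versions, and base 2 was inferred from RMA. Neither the log base nor the annotation build is given in the sources used here. RMA equalises array distributions, so a global shift would be removed, and it compresses dim signals. Each array appears as a gene-level and an exon-level sample, and 4428 of 4428 shared features were identical, so exon-level samples were never counted as replicates. No scan date or slide was used here.

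Old symbols were updated through RefSeq identifiers (GRCh38.p14). Probe sets with several symbols were left out, a gene kept its brightest probe set, and genes with means under the 25th percentile were dropped (13813 of 18417 kept). The arrays' number, 4 per label, limits the precision. Limma 3.58.1 in R 4.3.3 fitted induction label, B code and last number (residual degrees of freedom 4). Every adjusted p for a gene, also those printed without the tool's name, is limma's after Benjamini-Hochberg adjustment over all tested features. Interactions had fits of their own. Figures were drawn with matplotlib 3.10.9.

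The members, lists and tests were chosen with earlier results of these data known. The rule for named genes took all 10 members, RELB, the 4 genes of each pathway list with the lowest p, and the 1 most correlated gene per member. It did not cover the marker lists: the markers and single probe sets named were picked after their values were seen. Same-numbered arrays deviated from their group means with correlations of 0.158, -0.0209, 0.114 and 0.0218, so the numbers were not taken to pair the samples. Scripts were checked on simulated data, where the exon usage F test made too many false calls. Alternatives were the filter, normalisation, variance model, block, probe set averaging, threshold and each array left out in turn.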

Additional observations from a re-analysis of the deposited data

How the results depend on the processing

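Of 188 alternative values of the 10 member differences, 181 kept direction and side of the threshold. The exceptions all left out 1 array: BCL2 lost its call in 2 cases and BAK1 in 4, as given above, and the difference of BBC3, which passed in none, ran from -0.0055 (without induced replicate 2) to 0.14. BCL2L1, MCL1, BCL2L11, BID, PMAIP1 and BAX kept their calls in all 19 alternatives each. Many of these alternatives could not change a direction. The filter, variance model, threshold, covariate and block settings, and averaging gene-level probe sets, left the member differences themselves the same. The looser threshold of 0.1 could not lose a call. Leaving out 1 array gave 2 higher and 4 to 6 lower members, 16 or 17 higher and 27 to 33 lower member exon-level probe sets, and 5 or 6 members with unequal probe sets. Other settings gave 15 to 17 higher and 30 to 36 lower member probe sets. Unequal probe sets were called in 7 members with no filter, 5 with the median filter and 4 with a spread per probe set, against 6. The interaction of induction label and B code was passed by 1 member, BCL2L1, with a variance trend and robust fitting. At the threshold 0.1 it was again passed by 1, BCL2L1, because the limma adjusted p of the main fit, 0.0902, lies under that threshold. Otherwise 0 members passed it. Why the variance model changed the call was not tested. With the 4 pairs as a replicate block, 2 members rose and 6 fell, 17 exon-level probe sets rose and 30 fell, and no member call changed. BCL2A1 could not be tested under the median filter or with exon-level means. A random block was not run for exon usage. Dim signals limit BCL2A1, and 4 arrays per label limit all interactions.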
